A study of Mus musculus with 12 samples.

Results

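Among the H4K20me3 domains of mouse embryonic stem cells, 286 of the 28210 listed lay across the boundary of a protein-coding gene. They were chosen by position and width: chromosomes 1 to 19, a start at or after 8 Mb, a width of at least 1 kb and under 10 kb, an overlap of at least 1 base with a RefSeq protein-coding gene body, and no such gene that held the whole domain. In the same range of chromosome, start and width there were 20695 domains, of which 3957 lay wholly inside a protein-coding gene and 16452 touched none, so that the crossing domains were 1.38% of that range and 6.74% of those that touched a gene. The choice used position, width and overlap with genes, so those values are given as descriptions.

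The ChIP-seq samples came from the embryonic stem cell line dTKO, with the genotype Suv39h1fl/fl; Suv39h2-/-; Setdb1fl/fl in every sample. Cells were treated with auxin (100 μg/ml) together with dTAG13 (0.5 μM), small molecules that trigger degradation of tagged proteins, and collected at 0, 12, 24 and 48 h in 3 replicates per time. All 12 samples share the missing Suv39h2 gene and the floxed alleles, and the sources used here do not say whether the line is a single clone. The data used here are 1 list of domains that names no sample and carries no signal, so the values below have no replicate error, and the time course was not analysed here.

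H4K20me3 is laid down by the enzymes Kmt5b and Kmt5c, which can be brought to chromatin by HP1 proteins bound to H3K9me3, the product of Suv39h1, Suv39h2 and Setdb1. The mark is known from pericentromeric repeats, telomeres and certain retroviral elements. A domain at a gene's start can cover the place where transcription begins, while one at its end can cover some or all of the last exon. In many zinc finger genes the last exon encodes the array of fingers. Exons were not examined here. None of the 3 methyltransferase genes of the genotype was crossed by such a domain. Setdb1 (chr3:95323525-95357202) lay in the range examined, while Suv39h2 on chromosome 2 starts before 8 Mb and Suv39h1 lies on X.

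The sequences below show the 250 bases before the RefSeq transcript start for genes whose start lay in a crossing domain or, for Vpreb1, whose whole body did. All but the last pair are germline genes, while the last pair encodes the surrogate light chain of the pre-B cell receptor, shown as a contrast in CpG content. Each is written 5′ to 3′ on the gene's strand, in RefSeq build GRCm38.p6, with every CpG dinucleotide in capitals.
Ddx4, chr13:112652311-112652560, minus strand: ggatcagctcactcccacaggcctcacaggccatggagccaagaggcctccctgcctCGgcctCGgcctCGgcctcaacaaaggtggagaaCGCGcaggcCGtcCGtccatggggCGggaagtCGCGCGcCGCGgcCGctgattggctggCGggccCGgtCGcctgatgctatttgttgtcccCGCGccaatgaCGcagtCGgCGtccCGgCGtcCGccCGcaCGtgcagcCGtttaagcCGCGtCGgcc
Brdt, chr5:107330944-107331193, plus strand: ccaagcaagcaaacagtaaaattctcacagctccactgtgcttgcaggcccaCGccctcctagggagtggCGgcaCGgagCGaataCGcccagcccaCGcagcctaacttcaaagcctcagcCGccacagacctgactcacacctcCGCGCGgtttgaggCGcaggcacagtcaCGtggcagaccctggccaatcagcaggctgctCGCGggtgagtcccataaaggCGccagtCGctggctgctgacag
Mov10l1, chr15:88982744-88982993, plus strand: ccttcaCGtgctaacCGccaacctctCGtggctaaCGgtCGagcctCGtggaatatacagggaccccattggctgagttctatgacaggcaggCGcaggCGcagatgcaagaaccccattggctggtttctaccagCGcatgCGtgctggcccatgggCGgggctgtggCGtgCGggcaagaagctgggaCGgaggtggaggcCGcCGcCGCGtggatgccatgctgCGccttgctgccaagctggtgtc
Sycp2, chr2:178407659-178407908, minus strand: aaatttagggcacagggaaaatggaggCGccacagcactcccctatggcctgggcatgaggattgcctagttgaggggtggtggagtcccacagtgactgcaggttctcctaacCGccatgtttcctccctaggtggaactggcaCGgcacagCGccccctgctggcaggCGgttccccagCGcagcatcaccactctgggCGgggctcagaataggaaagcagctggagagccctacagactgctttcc
Rpl10l, chr12:66284402-66284651, minus strand: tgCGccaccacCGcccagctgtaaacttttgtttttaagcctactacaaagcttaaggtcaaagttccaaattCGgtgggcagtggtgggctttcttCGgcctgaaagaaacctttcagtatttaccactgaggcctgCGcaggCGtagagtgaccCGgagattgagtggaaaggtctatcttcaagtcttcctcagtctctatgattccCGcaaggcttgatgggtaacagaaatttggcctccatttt
Fkbp6, chr5:135350045-135350294, minus strand: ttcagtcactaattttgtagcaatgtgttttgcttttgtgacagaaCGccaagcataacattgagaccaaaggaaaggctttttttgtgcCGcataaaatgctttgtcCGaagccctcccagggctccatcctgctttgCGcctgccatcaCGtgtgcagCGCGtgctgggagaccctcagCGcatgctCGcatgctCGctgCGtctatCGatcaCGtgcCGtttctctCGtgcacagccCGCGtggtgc
Igll1, chr16:16863986-16864235, minus strand: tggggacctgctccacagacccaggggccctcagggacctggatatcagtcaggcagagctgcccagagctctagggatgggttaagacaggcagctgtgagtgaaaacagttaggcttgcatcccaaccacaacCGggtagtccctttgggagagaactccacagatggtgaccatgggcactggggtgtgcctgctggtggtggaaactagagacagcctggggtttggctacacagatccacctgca
Vpreb1, chr16:16869256-16869505, minus strand: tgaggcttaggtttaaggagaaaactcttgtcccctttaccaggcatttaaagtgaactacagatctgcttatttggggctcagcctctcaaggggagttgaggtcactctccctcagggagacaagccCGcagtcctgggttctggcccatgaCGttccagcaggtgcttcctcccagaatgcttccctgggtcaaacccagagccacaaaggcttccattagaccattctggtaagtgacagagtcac
In these windows Ddx4 had 31 CpG dinucleotides, Mov10l1 19, Fkbp6 17, Brdt 16, Rpl10l 8 and Sycp2 7, whereas Vpreb1 had 2 and Igll1 1. The transcript start used lay at the annotated gene start for Rpl10l, Igll1 and Vpreb1. It lay inside the gene body by 78 bases in Brdt, 103 in Mov10l1, 118 in Sycp2, 323 in Ddx4 and 1765 in Fkbp6.

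The 286 domains crossed 295 genes in 298 domain and gene pairs, out of 19695 protein-coding genes in the range, a background of 1.5%. The strand came from the RefSeq promoter table, which gave it for 15764 of these genes (80.0%). In 101 pairs the gene's start lay inside the domain and its end outside (0.641% of genes of known strand). In 121 pairs the end lay inside and the start outside (0.768%). In 23 pairs the whole body lay inside (0.117% of all genes), and in 53 pairs an end lay inside but the strand was unknown. Among the 222 pairs of known strand with a single end inside, starts thus made up 45.5%. The 95% Wilson interval, 39.1 to 52.1%, treats pairs as independent and covers counting error only. Whether either side of the gene was the more frequent was not tested. Among domains under 5 kb the order was the opposite, with starts at 53.1%. In 85 of the 101 start pairs a listed transcript start lay in the domain, and in 0 of the 121 end pairs did it. This contrast is largely set by the definition, since a start pair holds the annotated gene start and an end pair does not.

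**Figure D1:**
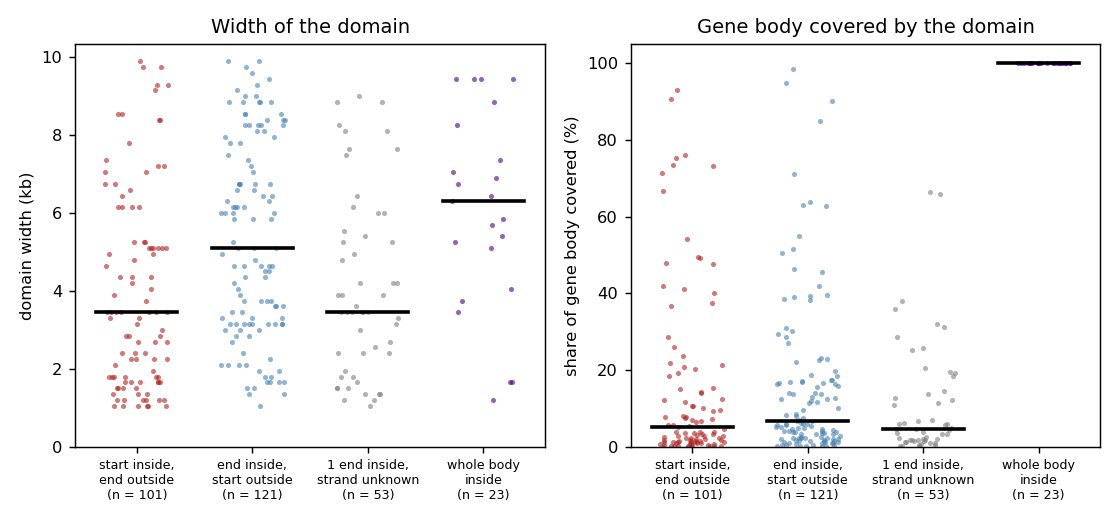
Left, width in kb of the crossing domain for each domain and gene pair; right, share of the gene body covered by that domain in percent. Points are pairs, grouped by which part of the gene lay inside, and black lines are medians. Domains over a start had a median width of 3.45 kb and those over an end 5.10 kb, and most single-end pairs covered a small share of the gene.

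Domains over starts were the narrower in this set, with a median of 3.45 kb (quartiles 1.80 and 5.25) against 5.10 kb (quartiles 3.15 and 7.80). At starts a median of 0.860 kb lay inside the gene and 1.55 kb upstream of it, and at ends 1.08 kb lay inside and 3.06 kb downstream. The domain had more than 50% of its length inside the gene in 36 of 101 start pairs (35.6%) and 35 of 121 end pairs (28.9%). Crossing was rarely a matter of a few bases, since the gene end lay within 150 bases of the domain's nearer edge in 10 start pairs (9.90%) and 6 end pairs (4.96%). The share of the gene covered was small in most pairs, with a median of 5.09% at starts and 6.61% at ends, and 165 of the 298 pairs had under 10% covered. The genes with a start inside had a median length of 15.5 kb and those with an end inside 18.2 kb, close to the 17.6 kb of all protein-coding genes examined.

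The crossed members of the meiosis and piRNA list were met at their starts. The list was written by hand from genes with roles in germ cells, chiefly in recombination and in silencing of transposons, with Rpl10l as a testis retrogene among them. Of these, 5 of 43 were crossed (11.6%), and in all 5 the domain lay over the start. These were 13.5% of the 37 members of known strand, against 0.641% of all protein-coding genes, while 0 of the 37 had only an end inside, against 0.768%. The list was drawn up with earlier results of these data known, and no test was made. Their domains were short, at 1.20 to 2.70 kb with a median of 1.35 kb. They reached 0.217 to 1.02 kb upstream and 0.751 to 1.69 kb into the gene, and 4 of the 5 lay mostly inside it.

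Ddx4, which encodes the germ cell RNA helicase known as Vasa, runs on the minus strand of chromosome 13 (chr13:112598333-112652633). Its only listed domain, chr13:112651501-112652850, was 1.35 kb wide, with 1.13 kb inside the gene. Sycp2, a component of the synaptonemal complex (chr2:178345295-178407776, minus strand), had a domain of 1.20 kb at chr2:178406851-178408050, with 0.926 kb inside. Brdt, a testis bromodomain protein (chr5:107331116-107387061, plus strand), had a domain of 2.70 kb at chr5:107330101-107332800, of which 1.69 kb lay inside. These 3 long genes had 1.48 to 3.01% of their bodies covered by listed domains, which lay over the beginning of the gene. The list carries no signal, so the rest of each gene is not shown to lack the mark.

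Mov10l1, a helicase of the piRNA pathway, starts head to head with Mlc1, a membrane protein gene of astrocytes, and a single domain of 1.80 kb (chr15:88981951-88983750) held both annotated gene starts. The listed transcript start lay inside it for Mov10l1 and outside it for Mlc1. It took in 0.860 kb of Mov10l1 and 0.743 kb of Mlc1, and a second listed domain lay further inside Mov10l1. Rpl10l, a ribosomal protein retrogene expressed in testis, is short at 1.02 kb, and its domain of 1.20 kb covered 73.4% of it and left its end free. The germline members thus differed in how much of the gene was covered and shared the side that was covered. Narrow crossing domains lay more often over starts in general. Of 101 starts and 121 ends over all genes, 69 and 108 lay in domains of 2 kb or wider. Under 5 kb there were 68 starts and 60 ends. The germline starts were not compared with domains of like width.

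A few further genes known from testis were picked out by hand, after their values were seen, among those with a start inside. Genes with an end inside were not searched in this way, so the examples give no count and no direction for testis genes. Fkbp6, a cochaperone of the piRNA pathway, had 3.06 kb inside a domain of 3.45 kb. That domain also held the neighbouring boundary of Trim50, whose strand is unknown. Henmt1, which methylates the ends of piRNAs, had 0.447 kb inside a domain of 4.95 kb, with its listed transcript start outside. H1f7, a linker histone gene of spermatids, had 75.9% of its body covered, and Rpl39l, a paralogue of Rpl39 expressed in testis, had 75.4%. D1Pas1, an RNA helicase gene of testis, had 21.3% covered, Tuba3b, a tubulin gene, 10.7% and Naa11, an acetyltransferase subunit gene, 7.71%. Cox7b2, a testis form of a respiratory chain subunit, had a domain of 1.35 kb over the start of a body of 105 kb. In the list of testis and sperm genes taken by symbol 1 of 121 was crossed (0.826%, against 1.50% of all genes), namely Spata5l1 with its start inside.

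**Figure D2:**
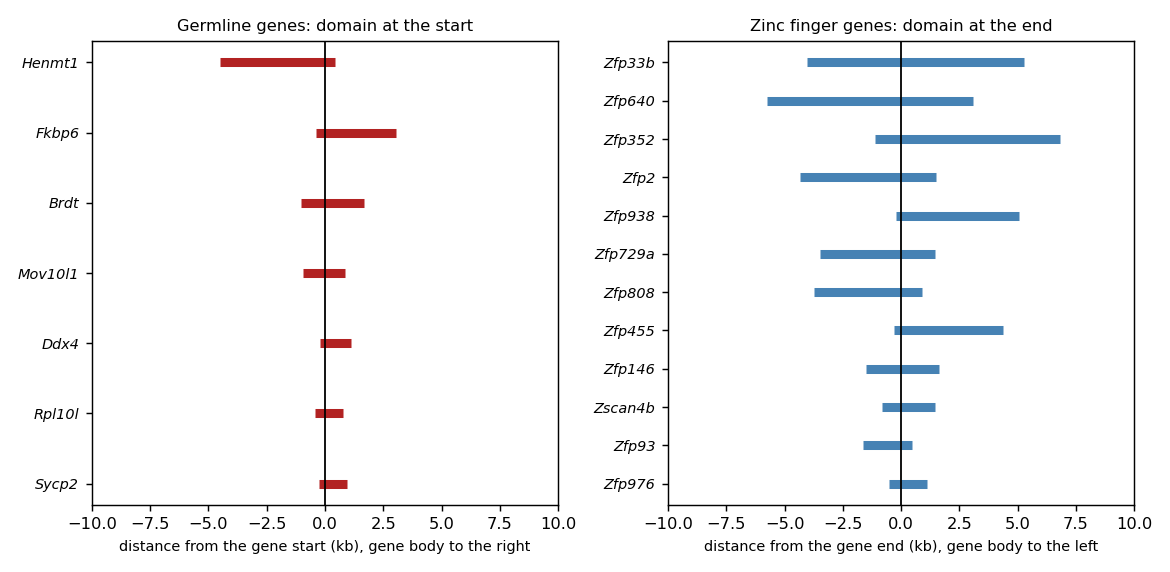
Position of the crossing domain relative to the gene start (left, gene body to the right of 0) for the 5 crossed members of the meiosis and piRNA list with Fkbp6 and Henmt1 added, and relative to the gene end (right, gene body to the left of 0) for the 12 zinc finger genes with an end inside. Bars are domains, on an axis of distance in kb. The domains over the 5 list members were 1.20 to 2.70 kb wide and those over zinc finger ends 1.65 to 9.30 kb.

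Zinc finger genes were met more often at their ends. Many of their products bind transposon sequences and recruit Setdb1 through Trim28. Of 392 such genes by symbol, 17 were crossed (4.34%, against 1.50% of all protein-coding genes). The end lay inside in 12 of the 326 of known strand (3.68%, against 0.768%), the start in 4 (1.23%, against 0.641%), and no gene lay wholly inside. The domains at ends had a median width of 4.80 kb. They reached 0.201 to 5.78 kb into the gene, and 5 of the 12 lay mostly inside it. In 5 of the 12 the gene held other listed domains as well.

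Zfp640 (chr13:66670274-66680803, minus strand) had the largest share, 54.9% of its body in a domain of 8.85 kb at chr13:66667201-66676050. Zfp33b had 28.6% in a domain of 9.30 kb, and Zfp2 22.9% in a domain of 5.85 kb. Zfp808, with 8.48%, and Zfp729a, with 13.9%, had more than 3 kb of domain inside the gene. At Zfp938 and Zfp455, in contrast, only 0.201 and 0.298 kb lay inside, and the domains extended 5.05 and 4.35 kb beyond the gene. Zfp352 and Zscan4b, genes known from the 2-cell embryo, had 16.6% and 18.8% covered, likewise at the end. The 4 genes met at the start were Zfp109 (20.3% covered), Zfp869 (6.86%), Zfp790 (2.25%) and Zfp518a (1.34%). Of these, Zfp869 had its listed transcript start inside the domain, while in the other 3 the annotated gene start lay inside and the listed transcript start outside. For Zfp930 (25.7% covered) the strand was unknown.

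Domains that the width limits leave out were looked at in the same way. Among crossing domains under 1 kb or of 10 kb and wider, zinc finger genes had 5 ends, 2 starts and 2 ends of unknown strand inside. The 5 were Zfp996, Zfp160, Zfp942, Zfp11 and Zfp977. The meiosis and piRNA list had 1 further gene, Dazl, an RNA-binding protein gene of germ cells, whose start lay in a domain of 0.900 kb. Over all genes, the 119 crossing domains of 10 kb and wider gave 36 starts, 51 ends and 26 whole bodies, and the 25 under 1 kb gave 12 starts, 8 ends and 0 whole bodies.

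**Figure D3:**
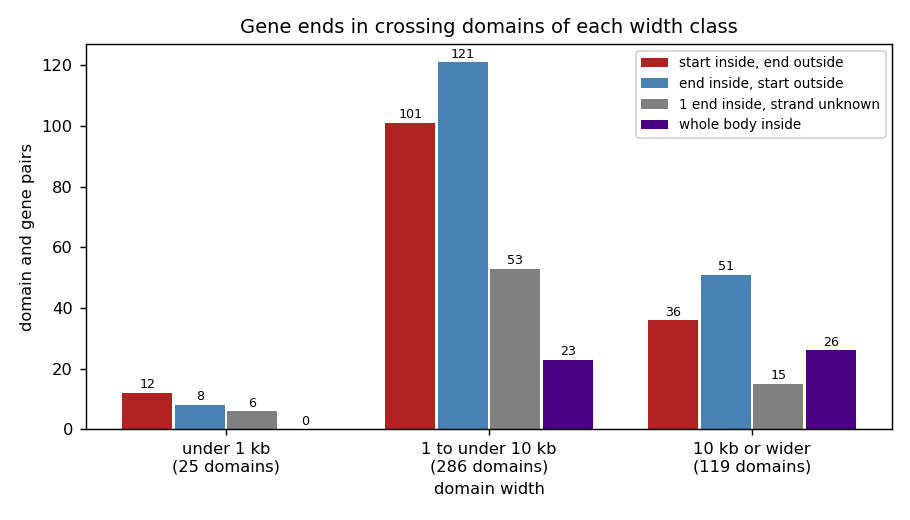
Number of domain and gene pairs by width of the crossing domain (x axis, 3 classes from narrow to wide) on chromosomes 1 to 19 after the first 8 Mb, split by which part of the gene lay inside. Starts outnumbered ends under 1 kb (12 and 8) and ends outnumbered starts in each of the wider classes as a whole (121 and 101, then 51 and 36).

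At the lower width limit, 8 crossing domains were 1.05 kb wide, the narrowest kept, and 12 of 0.900 kb fell outside. At the upper limit, 3 were 9.90 kb wide, over Olfr725, Gm10573 and Gm3409, and 4 of 10.1 kb fell outside. The crossing domain kept with the smallest start, 8865 kb along its chromosome, lay over Abcb1b, and the last one left out for its start, at 7980.3 kb, lay over Steap4.

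A gene wholly inside a domain of under 10 kb is short by the choice of domains. The 23 genes had a median length of 1.33 kb, from 0.438 to 8.28 kb, and their domains a median width of 6.30 kb. Olfactory receptor genes supplied 6 of them (Olfr318, Olfr1045, Olfr1047, Olfr1285, Olfr506 and Olfr149), out of 1093 such genes. Vomeronasal receptor genes supplied 2 (Vmn1r215 and Vmn1r48), out of 328. The share over all protein-coding genes was 0.117%, and other genes of like length were not compared. Pxt1, a testis gene, was the longest at 8.28 kb, inside a domain of 9.45 kb. Next came Gm39701 at 4.66 kb and Nat8f5, of the N-acetyltransferase 8 family, at 3.76 kb, whose relative Nat8f2 on the same chromosome had its start inside another domain (40.0% covered). Ear10 and Ang2, ribonuclease genes on chromosome 14, lay wholly inside domains of 9.45 and 1.20 kb, and Rnase10 on the same chromosome had its end inside (38.6% covered).

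Olfactory receptors, which detect odours, were crossed in 13 of 1093 cases (1.19%, against 1.50%), with 2 starts, 5 ends and 6 whole bodies. Vomeronasal receptors, which detect pheromones, were crossed in 10 of 328 (3.05%, against 1.50%), with 3 starts, 5 ends and 2 whole bodies. The domain over Olfr725 covered 90.2% of the gene from its end, and that over Olfr514 90.8% from its start. Vmn1r1 had 54.1% covered at its start and Vmn2r12 37.6%. Most receptor bodies are near 1 kb (medians 0.951 and 0.959 kb), so a domain of several kilobases can hold an entire gene. None of 53 taste and trace amine receptor genes was crossed.

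Cytochrome P450 genes, which oxidise steroids and foreign compounds, were crossed in 7 of 97 cases (7.22%, against 1.50%). Ends lay inside in 4 of 76 (5.26%) and starts in 2 (2.63%). Cyp2a4, a steroid hydroxylase gene, had 26.1% covered at its start and Cyp2t4 19.3%. Cyp4a30b had 17.0% and Cyp4a29 4.97% covered at their ends, on the same stretch of chromosome 4. Cyp3a41b (2.25%) and Cyp19a1, the aromatase gene (0.258%), were touched at their ends, and Cyp2d12 (3.61%) at an end of unknown strand. Of 104 genes for other xenobiotic and transfer enzymes 2 were crossed (1.92%, near the 1.50% of all genes), Sult2a4 and Ugt1a10, both at the start. Of 84 serpin and major urinary protein genes 2 were (2.38%), Mup21 at the start and Serpina10 at an end of unknown strand.

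**Figure D4:**
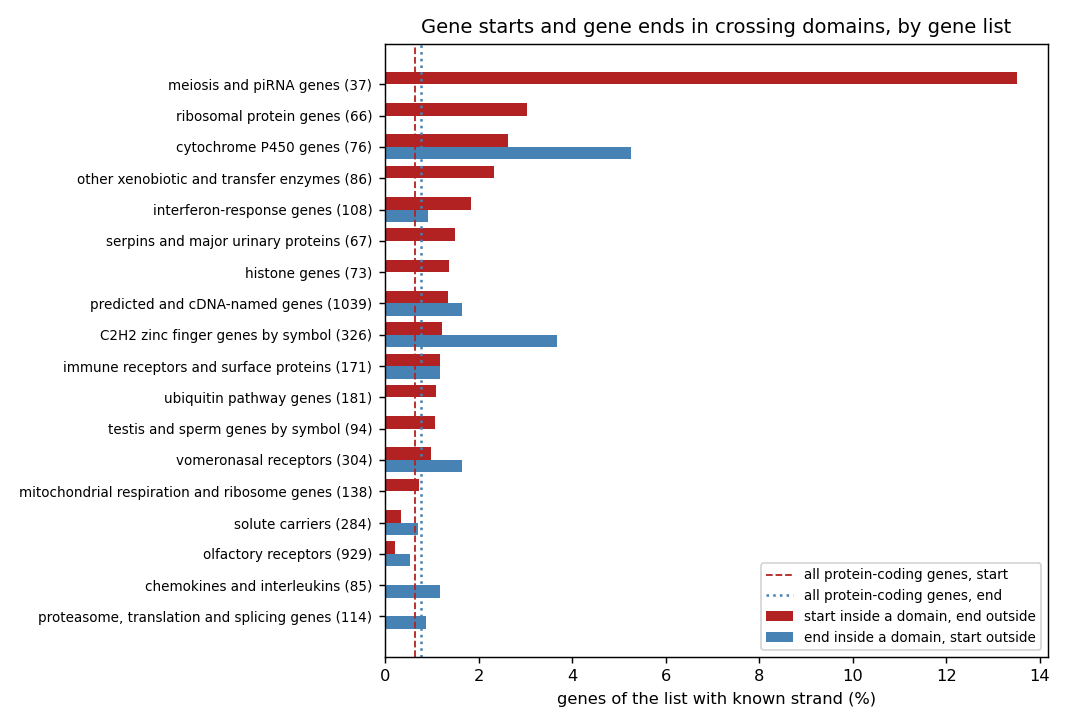
Share of genes of known strand, in percent, whose start (red) or end (blue) lay in a crossing domain, for the 18 lists with at least 1 such gene; the number of genes of known strand is in brackets. Dashed and dotted lines give the share of all protein-coding genes, 0.641% for starts and 0.768% for ends. Meiosis and piRNA genes had 13.5% of starts and 0% of ends inside, and zinc finger genes 1.23% of starts and 3.68% of ends.

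Igll1 and Vpreb1, the surrogate light chain genes on chromosome 16, had separate domains of 3.45 kb (chr16:16862401-16865850) and 1.65 kb (chr16:16868101-16869750). The first covered the start of Igll1 and 47.8% of its body, and the second held the whole of Vpreb1. Cd3e, a T cell receptor subunit gene, had a domain of 1.20 kb over its start, with 1.11 kb inside. Of 220 immune receptor and surface protein genes 6 were crossed (2.73%, against 1.50% of all genes), with 2 starts, 2 ends and 2 ends of unknown strand. Besides Cd3e they were Clec12a, Ly6f, Klrb1c, Ly6l and Clec2f. Of 136 genes on the interferon-response list 5 were crossed (3.68%, against the same 1.50%). Among them were Trim80 with 14.3% covered at its start and Ifi213 with 2.48% at its end. The others were Gbp9, Trim50 and Trim52. The list thus counts genes of the Trim family, and their response to interferon was not examined here.

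Fv1, a gag-derived restriction gene against murine leukaemia viruses, lay wholly inside a domain of 6.75 kb on chromosome 4 (chr4:147867601-147874350). The same domain took in the start of Miip on one side (1.12 kb) and the end of Mfn2, a mitofusin gene, on the other (0.765 kb). Nynrin, which carries a domain of retroviral origin, had 2.59 kb of its end in a domain of 9.00 kb that also held the end of Cbln3. These genes were named as members of the domains with the ends of several genes.

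Ends of 2 or more genes shared a domain in 11 cases, 10 with 2 genes and 1 with 3. In 4 of these the domain ran from the end of a gene to the start of the next, at Csta3 and Csta2, Atp13a2 and Mfap2, Lig1 and Pla2g4c, and Ren1 and Etnk2. In 2 the genes met end to end, at Nynrin and Cbln3 and at Pnpla1 and Bnip5, and in 1 start to start, at Mlc1 and Mov10l1. The gene bodies overlapped in 2, at Gm44501 with Esp5 and at Gm51582 with Inpp4b, and for Trim50 beside Fkbp6 the strand was unknown. The other 275 domains crossed a single gene. Conversely, 3 genes had separate crossing domains at both ends: LOC115488129 on chromosome 13 (38.3% and 1.39% covered), Gm6871 on chromosome 7 (30.8% and 15.0%) and Gm10323 on chromosome 13 (38.0% and 31.3%). In all, 60 of the 295 genes held other listed domains besides the crossing ones.

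Several further lists had 1 to 3 crossed members each, with shares given beside the 1.50% of all genes. Of 86 ribosomal protein genes, Rpl39l and Rpl10l alone were crossed (2.33%). Of 139 proteasome, translation and splicing genes 1 was (0.719%), Psma1, with 6.92% of its body covered at its end. Of 165 mitochondrial respiration and ribosome genes 1 was (0.606%), Cox7b2. Of 79 histone genes 1 was, H1f7 (1.27%). Solute carriers were crossed in 3 of 366 cases (0.820%), at Slc29a3, Slc35a5 and Slc9b1. Ubiquitin pathway genes were crossed in 2 of 235 (0.851%), at Fbxw23 and Fbxo33. Of 111 chemokine and interleukin genes 1 was (0.901%), Il31ra, with 0.204% of its body covered at its end. Of 32 pluripotency genes 1 was, a share above the 1.50% of all genes that rests on a single gene. This was Rif1, with 1.61% of its body covered at an end of unknown strand. Ung, a DNA repair glycosylase gene, was covered from its end over 51.6%.

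No gene was crossed in 8 lists, which were the taste and trace amine receptors, 39 Hox genes, 67 protocadherins, 112 keratin genes, 154 ion channels, 89 orphan and adhesion G protein receptors, 29 heterochromatin factors and 39 imprinted genes. With a background of 1.50%, lists of this size would hold few crossed genes at the share of all genes. Predicted and cDNA-named genes were crossed in 43 of 1244 cases (3.46%), with 14 starts, 17 ends and 7 whole bodies. The most covered of them with a single end inside were Gm11295 (98.5%, end), Gm21933 (94.8%, end) and Gm52787 (93.1%, start). Among named genes Fgfbp1, which encodes a carrier of fibroblast growth factors, had 66.6% covered at its start.

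The starts inside domains had fewer CpG dinucleotides before them than gene starts at large. In the 250 bases before the transcript start, 85 genes with a start in a domain had a median of 6 CpG (quartiles 2 and 12), against 10 (quartiles 3 and 19) in 15764 protein-coding genes with a promoter in the table. With 10 or more CpG there were 30 of the 85 (35.3%), against 51.8% of all. The GC share had a median of 52.0%, against 55.6%. Genes met at their end had a similar median of 4 CpG (quartiles 2 and 15, n = 119) at starts that no crossing domain covered. Some of these starts lay close to the domain. The 15 genes of known strand wholly inside a domain had a median of 3 CpG (quartiles 1.5 and 7.5). No test was made of these differences.

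**Figure D5:**
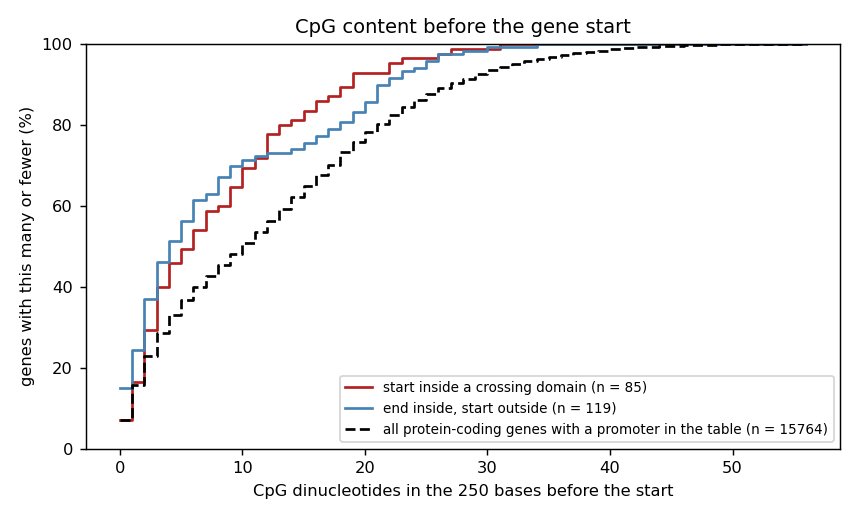
Cumulative share of genes in percent (y axis) by the number of CpG dinucleotides in the 250 bases before the transcript start (x axis), for genes with a start in a crossing domain, genes with only an end inside, and all protein-coding genes with a promoter in the table. The medians were 6, 4 and 10 CpG.

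The 5 members of the meiosis and piRNA list under a domain had 7 to 31 CpG with a median of 16, close to the median of 15 over all 37 list members in the table. Of the 5, Rpl10l (8) and Sycp2 (7) lay within the quartiles of the 85 genes, and Ddx4, Mov10l1 and Brdt lay above them. The hexamer CACGTG, an E-box, was searched on both strands of the window. It was found in 3 of the 5 (Ddx4, Brdt and Mov10l1) and in 11 of 37 list members (29.7%), against 6 of the 85 genes with a start in a domain (7.06%) and 6.72% of all genes. The heptamer GCGGGAA, a core of E2F sites, was found on either strand in 2 of the 5 (Ddx4 and Rpl10l), in 10 of 37 list members (27.0%) and in 5.11% of all genes. The TATAAA box was found in 0 of the 5, in 11 of the 85 (12.9%) and in 12.7% of all genes. These letters in a window do not show binding. CACGTG and GCGGGAA were chosen after values were seen, and the list with earlier results of these data known. The differences in share were not tested. Other genes with CpG-rich windows under a domain were Mia3 (27 CpG), Cdc7, a replication kinase gene (22), and Dhx36, a helicase gene (22).

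Crossing domains were wider than the other domains of the same range, with a median of 4.13 kb, against 2.70 kb for those wholly inside a gene and 2.85 kb for those that touched none. A wider domain reaches a gene end more readily, so this difference is partly set by the choice. The gap to the nearest listed domain had a median of 19.4 kb, against 35.3 kb inside genes and 17.7 kb away from them. A pseudogene was overlapped by 13 crossing domains (4.55%), against 1.09% of domains inside genes and 3.29% of those away from them. A long noncoding RNA gene was overlapped by 17 (5.94%), against 3.66% inside genes and 9.55% away from them. Among these were Rpl19-ps11 beside Defb7, and 4930467D21Rik in the domain over the start of Naa11. Chromosome 13 held the most crossing domains, 27, followed by chromosomes 5 and 7 with 25 each. These are raw counts, not set against the number of genes or domains on each chromosome.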

How the data were processed

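H4K20me3 ChIP-seq was made from 12 samples of the line dTKO, 3 at each of 4 times, with Drosophila chromatin as a spike-in (1.5 μg to 24 μg of mouse chromatin), per the labels' protocols. The submitters' processing notes list bedtools, deepTools, Bowtie2 2.3.4.1 and SAMtools 1.1 without a role. The file deposited by the authors is 1 list with 3 columns (chromosome, start, end). RSEG, a segmentation tool for broad marks, is named by the file only; the sources used here give no version, threshold or input libraries for it. Boundaries lie on a grid of 150 bases in all 286 domains described. The list was checked to hold no value per sample, so the depth of each library is unknown and the planned test over time was not run.

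Gene bodies were those of RefSeq GRCm38.p6, which is mm10. Strand and transcript starts came from the RefSeq promoter table. A gene without an entry there has unknown strand, and wrongly chosen transcript starts would shift the CpG counts. The start of a gene is its annotated 5′ boundary, and crossing required an overlap of 1 base or more. Genes were compared with the 19695 protein-coding genes of chromosomes 1 to 19 that end after 8 Mb. The members and the 27 gene lists were chosen with earlier results of these data known, and the motifs CACGTG and GCGGGAA after values were seen. Motifs were counted on both strands, with overlap allowed.

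Genes are named by rule: the 10 longest bodies wholly inside a domain, the 10 most covered with a start inside and the 10 most covered with an end inside, up to 4 per list, domains with ends of several genes, and the widest and narrowest domains. Of these, some predicted genes are only counted; other names were chosen after their values were seen. Classification was tested on 400 simulated domains placed at known positions, and 400 were classified as placed. The simulated domains used only genes of known strand without near neighbours. Unknown strands, overlapping genes and domains over several genes were therefore not tried. Python 3.11.15, numpy 2.4.6, pandas 2.3.3 and matplotlib 3.10.9 were used.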

Additional observations from a re-analysis of the deposited data

How the results depend on the processing

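No paired analysis was possible because the list names no sample. For the same reason no replicate could be left out. Under 10 other settings, 6 summary values were recomputed: the number of crossing domains, of starts, of ends and of whole bodies inside, of domains with several genes, and the share of starts among single ends of known strand. Counts were held to a factor of 1.5 and the share to its 95% Wilson interval, 39.1 to 52.1%, and 53 of the 60 values stayed within. With domains under 5 kb only, there were 168 crossing domains, 60 ends, 6 whole bodies and 2 domains with several genes, and starts were 53.1% of single ends, so starts then outnumbered ends. With domains of 2 kb and wider, starts were 39.0%. By construction, the first setting leaves out wide domains and the second narrow ones. Without genes of unknown strand, a setting chosen after seeing the data, 15 whole bodies remained, since 8 of the 23 lacked a strand by construction. With domains 150 bases shorter on both sides, 271 of the 298 pairs kept their class. Among the lists, 2 of 53 recomputed shares left their interval. Leaving out predicted genes changed no list share, so those values do not measure stability. Counting ends in any listed domain can only keep or raise a share. It gave 6.82% of immune receptor genes and 6.59% of predicted genes, the 2 that left, against 2.31% of all protein-coding genes. The threshold of the list and its depth are unknown, so a gene end outside a domain is not shown to lack the mark.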
